A study of Arabidopsis thaliana with 6 samples.

Results

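The transcripts described here were those that differed from wild type in Arabidopsis thaliana seedlings of the nbp35-3/- genotype on both pairs of arrays, without doing so in the same direction in nar1-4/- seedlings. The members were chosen by their measured differences from wild type. A probe set was a member when its nbp35-3 value lay more than 0.585 log2 units (1.5-fold) above the wild-type value within replicate number 1 and within replicate number 2, or more than 0.585 below it within both, and when nar1-4 did not pass the same condition in the same direction. Of 22746 non-control probe sets, 29 passed on the higher side in nbp35-3 and 62 on the lower side. Of these, 2 and 12 also passed in nar1-4, and 5 and 2 more belonged to genes left out by name, among them DFR and COR15B. That left 70 members, 22 higher and 48 lower in nbp35-3. The label "not moved in nar1-4" was met only in part, since 12 of the 22 and 18 of the 48 passed 0.585 in nar1-4 within 1 of the numbers. Over all 22746 probe sets, nar1-4 lay past 0.585 in either direction in 634 within number 1 and in 1265 within number 2. Both mutants were set against the same wild-type arrays, so the member counts are a description only.

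The groups were whole seedlings of nbp35-3/-, of nar1-4/- and of wild type, all in the Col-0 background and collected 2 weeks after imbibition from MS plates kept at 22 °C with 16 h light and 8 h dark. Each genotype had 2 arrays, numbered 1 and 2, which the series describes as biological replicates. What "/-" stands for is not explained, and the allele is nbp35-3 in the titles, which were followed here, but nbp35-4 in the source names. NBP35 and NAR1 act one after the other in the cytosolic machinery that builds iron-sulphur (Fe-S) clusters. NBP35 is a P-loop NTPase scaffold on which a cluster is assembled, and NAR1 is an iron-only hydrogenase-like protein that passes clusters on towards the factors that insert them into cytosolic and nuclear enzymes, such as DNA polymerases, helicases and DNA glycosylases. In Arabidopsis both genes are essential for embryo development.

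NBP35 and NAR1 transcripts were not available as a check of the genotypes, because 0 probe sets carried either name. The labelled tissue was checked on marker genes. The leaf genes RCA and LHCB4.1 together averaged 13.14 and 13.27 in nbp35-3 (numbers 1 and 2), 13.19 and 13.34 in nar1-4, and 13.17 and 13.19 in wild type, and the 3 measured root markers averaged 7.38 to 8.10 on the 6 arrays. Between nbp35-3 and wild type the root-hair expansins EXPA7 and EXPA18 differed by 0.66 and 0.80 within number 1 and by -0.52 and -0.15 within number 2, and the root beta-glucosidase PYK10 by -0.20 and -0.13. For flower and seed, 0 of 6 markers written down were named by a probe set of their own. Genes are called measured here when a probe set named them alone. Since 8730 of the 22746 probe sets named no gene, other genes may be on the array unnamed. In whole seedlings, fewer cells of a type and less RNA per cell cannot be told apart.

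The members have to be read against how often the rule was met. The share of all probe sets past the rule was 0.127% on the higher side and 0.273% on the lower side in nbp35-3, and 0.356% and 0.343% in nar1-4. In nbp35-3, 91 probe sets passed in the same direction within both numbers and 129 (0.567%) passed in opposite directions. In nar1-4 the counts were 159 in the same direction and 30 (0.132%) in opposite directions. The nbp35-3 differences were wider within number 2, where 1996 probe sets lay past 0.585 in either direction, than within number 1, where 618 did. No probe set passed the limma test of nbp35-3 against wild type (0 of 22746 at an adjusted p under 0.05, 139 at an unadjusted p under 0.05). With the replicate number as a block the count was again 0, with 1076 at an unadjusted p under 0.05. With no difference at all, a share of 0.05 of the probe sets would be expected under that p, and neither unadjusted count exceeded it. The rule used this contrast, so the differences below are a description of the members and no test of them.

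**Figure D1:**
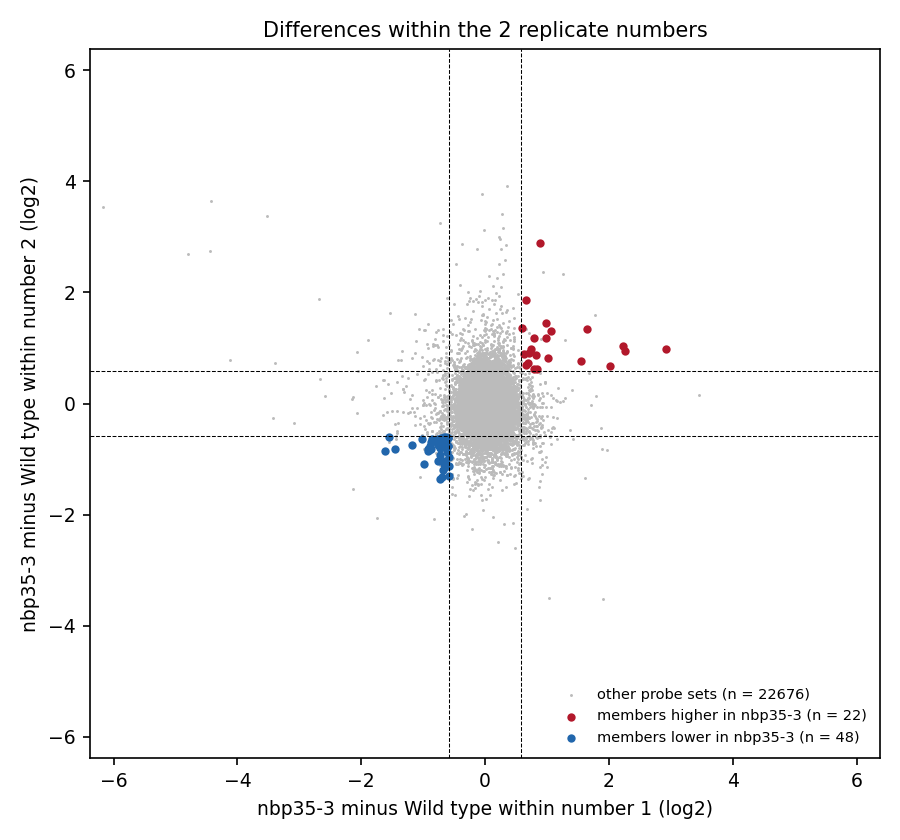
The difference between nbp35-3 and wild type (log2) within number 1 (x axis) is plotted against that within number 2 (y axis) for all 22746 probe sets, with dashed lines at 0.585 on either side of 0. The 22 higher members (red) and 48 lower members (blue) lie in opposite corners, which hold 91 probe sets with the non-members (grey) counted. The corners on the other diagonal hold 129 probe sets.

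Among the 22 higher members the mean difference from wild type ran from 0.68 to 1.96 log2 units, with a median of 1.03 (2.05-fold), where all probe sets had a median of 0.01. In nar1-4 the same probe sets differed from wild type by a median of 0.34, where all probe sets had a median of -0.006. Both mutants were compared with the same wild-type arrays, on which the members were chosen, so no shared response is read from the nar1-4 median. Of the 22, 8 named 1 gene, 1 named several and 13 named none. The 3 that were at least 2-fold higher within both numbers all lacked a gene name. Probe set 258856_at stood at 8.75 and 7.79 in nbp35-3 (numbers 1 and 2), 7.72 and 6.40 in nar1-4, and 7.11 and 6.45 in wild type. Probe set 246071_at stood at 8.67 and 7.29 in nbp35-3, 6.68 and 6.45 in nar1-4, and 6.45 and 6.25 in wild type.

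The named higher member furthest from wild type was AT5G20790, a transcript known to accumulate when phosphate is scarce. It stood at 6.49 and 4.96 in nbp35-3 (numbers 1 and 2), 3.69 and 3.83 in nar1-4, and 3.56 and 3.97 in wild type. Both nbp35-3 arrays lay above the other 4, but the difference from wild type was 2.93 within number 1 and 0.98 within number 2 (mean 1.96 ± 0.52, SE, 3.88-fold). AT5G20790 was the 1 gene of 18 written for phosphate starvation that a probe set named alone. Other genes of that list may be among the probe sets without a gene name, which include 13 of the higher members. The response as a whole was therefore not followed. A second transcript with this profile was AT5G17340, at 4.89 and 3.51 in nbp35-3, 2.99 and 2.81 in nar1-4, and 2.87 and 2.83 in wild type. Again both nbp35-3 arrays lay above the rest and the gap was wider within number 1 (2.02) than within number 2 (0.68), for a mean of 1.35 ± 0.46. In wild type AT5G17340 was among the low signals, below the first quartile of each of the 6 arrays. These were the 2 named higher members whose nbp35-3 value also exceeded nar1-4 by more than 0.585 within both numbers, by 2.80 and 1.12 for AT5G20790 and by 1.90 and 0.70 for AT5G17340.

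SWEET2 and AT1G02660 act in sugar transport and in lipid breakdown. SWEET2, a sugar carrier of the vacuolar membrane, stood at 7.46 and 7.83 in nbp35-3, 7.45 and 6.89 in nar1-4, and 6.68 and 7.20 in wild type, so that nbp35-3 exceeded nar1-4 by 0.01 within number 1 and by 0.94 within number 2. Across the 14 SWEET probe sets, a family looked up after SWEET2 was seen, 1 passed the rule and the median difference of nbp35-3 from wild type was 0.06. AT1G02660 (PLIP2), a plastid lipase, stood at 8.88 and 7.81 in nbp35-3, 8.79 and 6.98 in nar1-4, and 8.17 and 6.90 in wild type. It too lay near nar1-4 within number 1 and apart from it within number 2.

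AT4G37220, of the COR413 family of cold-acclimation membrane proteins, stood at 8.69 and 6.60 in nbp35-3, 8.33 and 5.07 in nar1-4, and 7.71 and 5.16 in wild type. Each genotype was lower in number 2, by more than the mutants differed from wild type, so the genotypes overlapped although nbp35-3 was the highest array of each number. The mean difference was 1.22 with an SE of 1.47, which holds the gap between the numbers, and an SE of 0.27 with the replicate block. Of the 18 cold and dehydration genes written as a list, 4 were measured, of which 0 were higher and 1 lower past the rule, the median being -0.67. COR15A and COR15B, which encode chloroplast proteins that protect membranes in the cold, were the furthest from wild type. In nbp35-3 COR15A differed by -3.08 and -0.35 within numbers 1 and 2 and COR15B by -1.44 and -0.64, the opposite side from AT4G37220. In nar1-4 COR15A differed by -2.19 and -0.62. LTI30, a dehydrin of cold and drought, differed by -0.25 and -0.36 in nbp35-3, and the dehydrin gene COR47 by 0.01 and 0.13.

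A receptor kinase and a pair of dehydrogenases completed the named higher members. AT1G11340, a lectin receptor kinase of the S-domain type, stood at 5.53 and 4.83 in nbp35-3, 4.83 and 4.47 in nar1-4, and 4.86 and 4.14 in wild type, with near-equal differences of 0.67 and 0.69 from wild type. AT3G50560, of the short-chain dehydrogenase family, stood at 6.77 and 7.96 in nbp35-3, 6.54 and 6.60 in nar1-4, and 6.10 and 6.10 in wild type. Its nbp35-3 arrays lay above the other 4, with nar1-4 between nbp35-3 and wild type within each number. AT4G24050, of the same family, stood at 5.28 and 6.25 in nbp35-3, 5.31 and 5.53 in nar1-4, and 4.65 and 5.36 in wild type, and was the 1 named higher member with nbp35-3 below nar1-4 within a number (-0.03 within number 1).

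**Figure D2:**
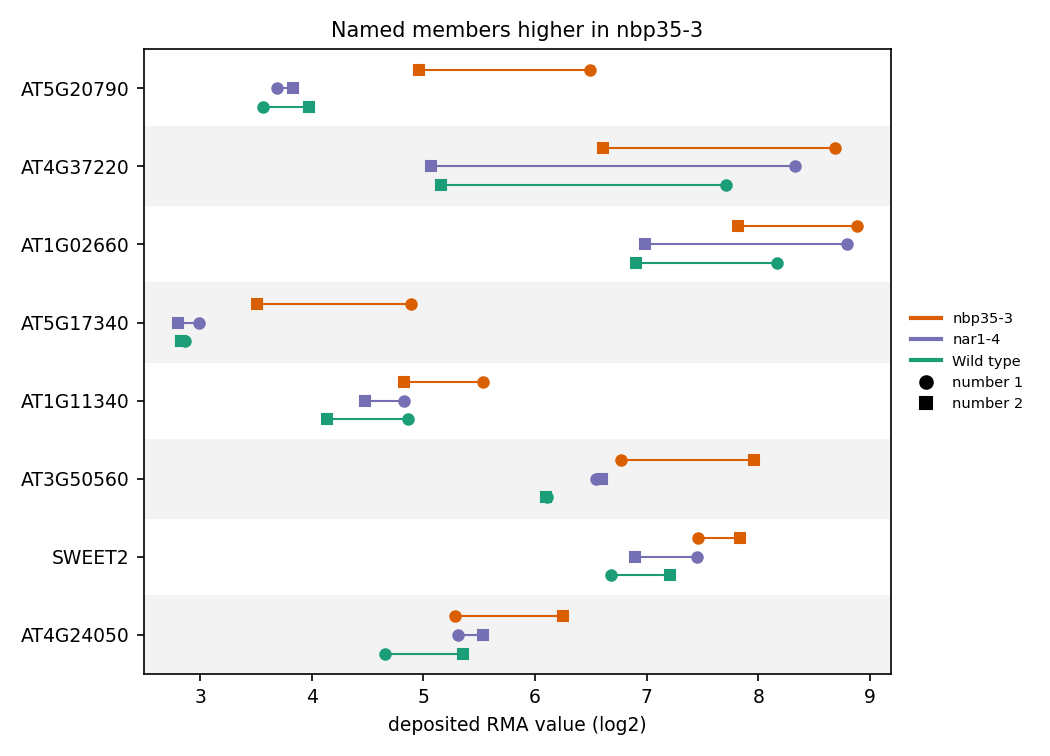
Deposited RMA values (log2, x axis) of the 8 named members higher in nbp35-3, with a circle for number 1 and a square for number 2 joined by a line for nbp35-3 (top), nar1-4 (middle) and wild type (bottom). In AT5G20790, AT5G17340 and AT3G50560, and by 0.01 in SWEET2, both nbp35-3 points lie to the right of the other 4. In AT4G37220 the points separate more by number than by genotype.

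The 48 lower members differed from wild type by smaller amounts, from -1.24 to -0.61 log2 units with a median of -0.76 (0.59 of wild type), and 0 were at least 2-fold lower within both numbers. In nar1-4 they differed by a median of -0.31, where all probe sets had a median of -0.006. The shared wild-type arrays limit this value in the same way. Of the 48, 19 named 1 gene, 1 named several and 28 named none. Probe set 259609_at, with no gene name, was the furthest down, at 5.30 and 6.30 in nbp35-3, 5.16 and 6.58 in nar1-4, and 6.91 and 7.16 in wild type. Its nar1-4 differences were -1.75 and -0.57, so that it missed the rule in nar1-4 through its value in number 2 alone.

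Of the named lower members, XTH20 and AT5G20740 belong to families that act on the cell wall. XTH20, an enzyme that cuts and rejoins xyloglucan chains of the wall, stood at 4.23 and 4.68 in nbp35-3, 4.67 and 5.13 in nar1-4, and 5.15 and 5.49 in wild type. Within each number XTH20 was lowest in nbp35-3 and nar1-4 lay between, and the mean difference from wild type was -0.86 ± 0.26 (SE). Of 9 XTH probe sets, looked up after XTH20 was seen, 0 were higher and 1 lower past the rule, with a median of 0.16, and XTH18 differed by -0.50 and 1.79 within numbers 1 and 2. AT5G20740, of the pectin methylesterase inhibitor family, stood at 4.49 and 6.08 in nbp35-3, 5.12 and 7.04 in nar1-4, and 5.24 and 6.83 in wild type. The genotypes overlapped across the numbers, but within each number nbp35-3 was lowest, by 0.76 and 0.74 against wild type and by 0.63 and 0.95 against nar1-4.

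AT5G45670, a GDSL-type lipase, was the named member furthest below nar1-4. It stood at 4.82 and 6.83 in nbp35-3, 6.10 and 7.89 in nar1-4, and 5.56 and 7.76 in wild type. It was lower in nbp35-3 than in nar1-4 by 1.28 and 1.06, and nar1-4 lay above wild type within both numbers, by 0.55 and 0.12. AT5G01870, of the lipid transfer protein family, stood at 7.95 and 8.48 in nbp35-3, 8.81 and 8.72 in nar1-4, and 8.84 and 9.24 in wild type. Both nbp35-3 arrays lay below the other 4.

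Other lower members had both nbp35-3 arrays below all others and no difference called between the numbers. AT4G30650, of the small RCI2-type membrane proteins known for low-temperature and salt responses, stood at 7.77 and 7.63 in nbp35-3, 7.93 and 8.36 in nar1-4, and 8.51 and 8.34 in wild type (mean difference from wild type -0.72 ± 0.19). AT1G19960 stood at 6.98 and 7.03 in nbp35-3, 7.54 and 7.18 in nar1-4, and 7.84 and 7.73 in wild type (-0.78 ± 0.17). AT2G28780 stood at 4.71 and 4.70 in nbp35-3, 4.92 and 5.54 in nar1-4, and 5.35 and 5.73 in wild type. In each of these genes nbp35-3 and wild type did not overlap, and in AT4G30650 the nar1-4 array of number 1 lay closer to nbp35-3 than to wild type. Both nbp35-3 arrays lay below both wild-type arrays in 23 of the 48 lower members, and above them in 14 of the 22 higher members. The shares over all probe sets were 8.61% and 11.1%, and since the rule used these arrays nothing is read from the comparison.

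Other lower members differed from wild type in nar1-4 as well, within 1 number or just under the threshold. AT5G59680, a leucine-rich repeat receptor kinase, stood at 4.62 and 4.82 in nbp35-3, 5.01 and 4.33 in nar1-4, and 5.53 and 5.67 in wild type, so that nar1-4 was the lower mutant in number 2. AT4G29700, of the nucleotide pyrophosphatase family, stood at 5.25 and 5.98 in nbp35-3, 5.05 and 6.16 in nar1-4, and 5.91 and 6.62 in wild type, with nbp35-3 0.20 above nar1-4 within number 1 and 0.17 below it within number 2. AT3G56080, of a methyltransferase family, was lower than wild type by 0.72 and 0.68 in nbp35-3 and by 0.60 and 0.54 in nar1-4. AT1G16850 was lower by 0.61 and 0.87 in nbp35-3 and by 0.77 and 0.44 in nar1-4. AT4G02850, of the PhzF family, differed from wild type by -0.73 and -0.80 in nbp35-3 and by -0.81 and 0.19 in nar1-4. Both mutants were compared with the same wild-type arrays, so these values are set side by side and their likeness was not tested.

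The remaining lower members fixed for naming stood apart from nar1-4 to different degrees. AT2G34810, of the berberine bridge enzyme family, stood at 4.28 and 5.91 in nbp35-3, 4.86 and 6.45 in nar1-4, and 4.94 and 6.52 in wild type, with nar1-4 within 0.08 of wild type in both numbers. AT5G01910 stood at 4.14 and 4.66 in nbp35-3, 4.71 and 5.52 in nar1-4, and 4.77 and 5.42 in wild type, and again nar1-4 lay close to wild type. AT2G40435 stood at 2.69 and 4.00 in nbp35-3, 2.89 and 4.59 in nar1-4, and 3.34 and 5.14 in wild type, with nar1-4 between the other genotypes in both numbers.

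**Figure D3:**
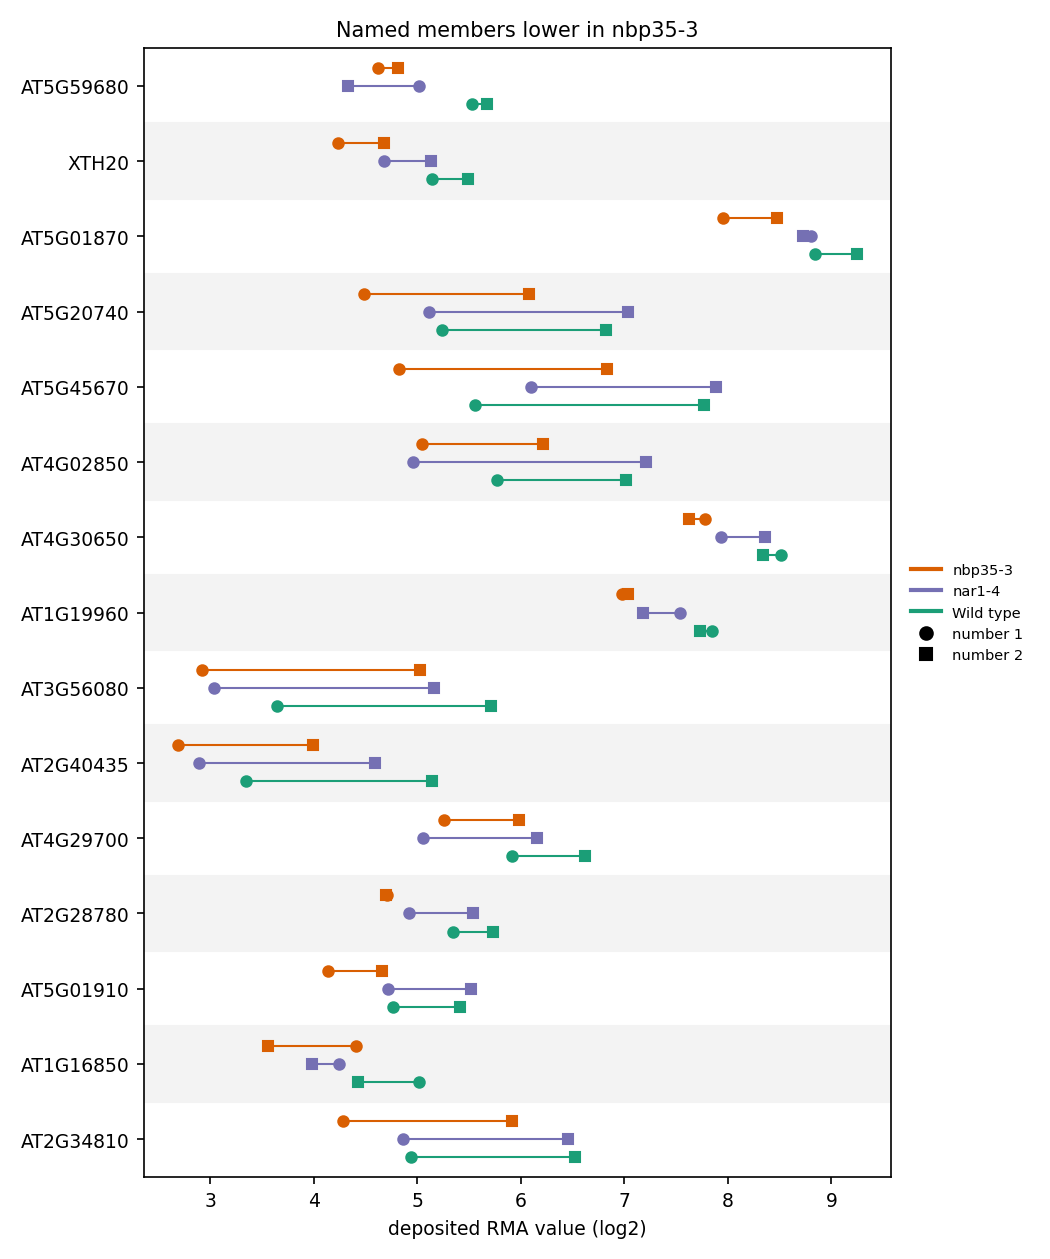
Deposited RMA values (log2, x axis) of the 15 named members lower in nbp35-3, drawn with a circle for number 1 and a square for number 2, and with nbp35-3 at the top, nar1-4 in the middle and wild type at the bottom of each band. AT4G30650, AT1G19960, AT2G28780, AT5G01870 and AT5G01910 have both nbp35-3 points left of all others. AT5G45670 and AT3G56080 spread by about 2 log2 units between the numbers in every genotype.

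A further 4 lower members with a gene name lay outside the naming rule and were chosen after their values were seen. UGT73B4, a glucosyltransferase of stress and pathogen responses, stood at 5.47 and 5.82 in nbp35-3, 5.86 and 5.95 in nar1-4, and 6.07 and 6.43 in wild type. Of 7 UGT73 probe sets 0 were higher and 1 lower past the rule, and UGT73B5 differed by 0.28 and -0.78. AT1G52000 and AT5G35940 both encode jacalin-type lectins, proteins that bind mannose-type sugars. AT1G52000 stood at 3.15 and 7.12 in nbp35-3, 4.21 and 7.19 in nar1-4, and 4.71 and 7.72 in wild type. AT5G35940 stood at 3.65 and 4.74 in nbp35-3, 3.72 and 4.74 in nar1-4, and 4.24 and 5.86 in wild type, where the mutants differed from each other by less than 0.07 within either number. AT3G47050, a glycosyl hydrolase, was lower than wild type by 0.60 and 0.77 in nbp35-3 and by 0.35 and 1.06 in nar1-4.

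The separation of the 2 mutants was next described over all members. Among the higher members nbp35-3 exceeded nar1-4 within both numbers in 16 of 22 and by more than 0.585 within both in 7, and 0.224% of all probe sets passed that threshold. Among the lower members nbp35-3 lay below nar1-4 within both numbers in 33 of 48 and by more than 0.585 within both in 9, against 0.404% of all probe sets. The mutants differed past 0.585 in opposite directions in the numbers for 0.818% of all probe sets. For direction alone the share over all probe sets was not counted, so the 16 of 22 and 33 of 48 have no background beside them. All these member counts share the nbp35-3 arrays with the rule, so they support nothing beyond it. In the limma fit of nbp35-3 against nar1-4, 0 members and 0 of all probe sets had an adjusted p under 0.05, with or without the replicate block. At an unadjusted p under 0.05 without the block there were 6 of the higher members, 2 of the lower members and 217 of all probe sets.

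**Figure D4:**
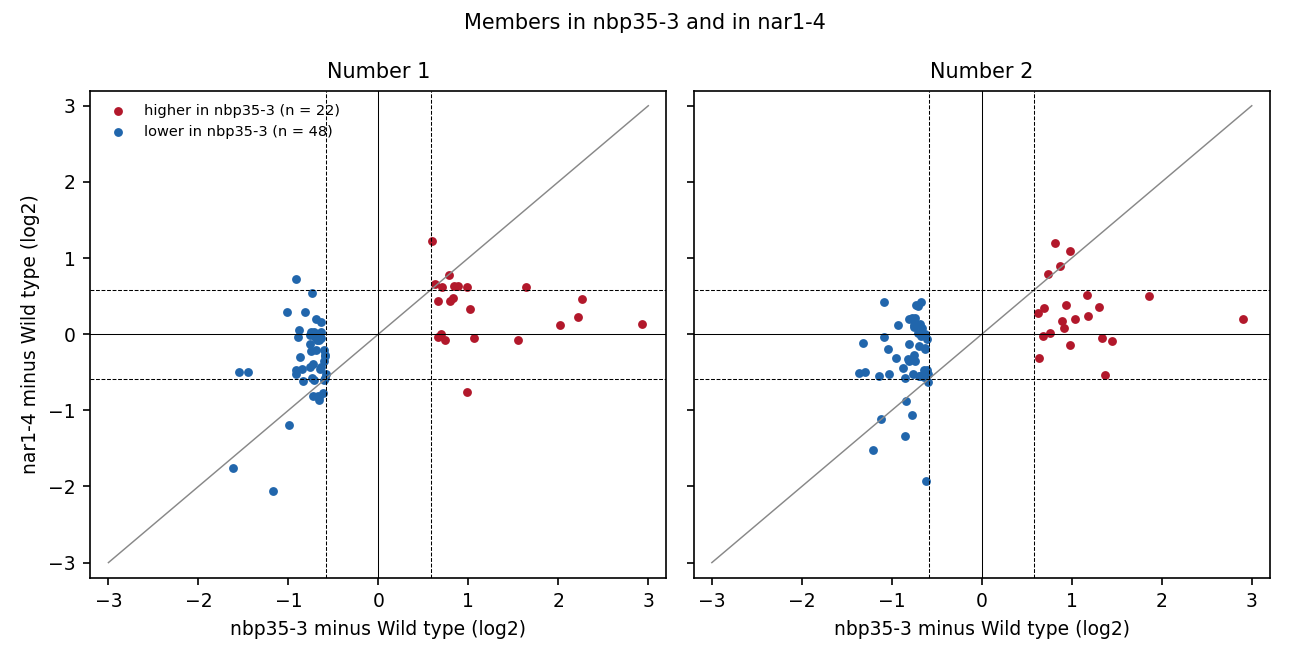
For the 70 members, the difference of nbp35-3 from wild type (log2, x axis) is plotted against that of nar1-4 from wild type (log2, y axis) within number 1 (left) and number 2 (right), with the diagonal in grey and dashed lines at 0.585 on either side of 0. Members past a horizontal dashed line on the side of their nbp35-3 difference in 1 panel are the 12 higher and 18 lower ones that nar1-4 matched in 1 number, and those near the horizontal axis in both panels are the ones with nar1-4 close to wild type.

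The rule set no condition on the difference between the replicate numbers, but it read the same 6 arrays. The spread behind the adjusted p of that difference includes how closely the genotype differences of the 2 numbers match, on which the members were chosen, so the calls of members below are a description and no independent test. In a limma fit with genotype as a covariate, 30 of the 48 lower members (62.5%) were higher in number 2 than in number 1 at an adjusted p under 0.05, and 3 were lower. Over all probe sets 12.3% were called higher and 11.2% lower. Of the 22 higher members 9 (40.9%) were called lower in number 2 and 1 was called higher. The median difference, number 2 minus number 1, was 0.996 log2 units over the lower members, -0.56 over the higher members and -0.01 over all probe sets. By sign alone, 16 of the 22 higher members were lower in number 2 and 40 of the 48 lower members were higher in it. Over all 22746 probe sets, 11646 were lower in number 2 and 11100 were higher.

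The nar1-4 arrays, which the rule also used through their differences from wild type, gave like shares. On them, 31 of the 48 lower members (64.6%) stood more than 0.585 higher in number 2 than in number 1, where 10.7% of all probe sets did, and 8 of the 22 higher members (36.4%) stood more than 0.585 lower, where 9.01% of all probe sets did. Single genes showed it to different degrees. AT5G45670 was 2.00 ± 0.12 (SE) higher in number 2 over the genotypes (limma adjusted p = 0.00129), AT2G34810 1.60 ± 0.09 higher (adjusted p = 0.00129, limma), and AT4G37220 differed by -2.63 ± 0.22 (limma adjusted p = 0.0023). By contrast AT4G30650 differed by 0.03 ± 0.15 (adjusted p = 0.9, limma), AT5G59680 by -0.11 ± 0.19 and AT5G20790 by -0.32 ± 0.37. Among the named genes called between the numbers, AT4G24050 and AT1G16850 went the other way from the rest of their direction, at 0.63 and -0.57 (limma adjusted p = 0.0407 and 0.0365).

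The fit between numbers had genotype as covariate. Once 1 array of a genotype was left out, its other array added nothing to the difference between numbers. Leaving out either array of a genotype therefore gave the same count by design, and amounted to leaving out that genotype. The count of calls fell without a wild-type or nar1-4 array and rose without an nbp35-3 array. Leaving out either wild-type array cut the calls over all probe sets to 1959 (5.16% higher and 3.45% lower), against 5325 with all arrays, and leaving out either nar1-4 array to 1715 (4.72% and 2.82%). The lower members called higher in number 2 were then 24 and 25 of 48, and the higher members called lower in number 2 were 5 and 6 of 22. Median centring of the arrays gave 2252 higher and 3592 lower calls over all probe sets, against 2787 and 2538 as deposited, with 29 of 48 lower members higher in number 2 and 11 of 22 higher members lower in it. The first principal component of the 6 arrays held 69.9% of the variance and set number 1 apart from number 2. On it nbp35-3 stood at 45.19 in number 1 and -28.51 in number 2, nar1-4 at 35.25 and -44.71, and wild type at 37.79 and -45.02, so that within each number the nbp35-3 array lay furthest towards the side of number 1. What arrays of 1 number had in common is not recorded, and the protocol states a smaller RNA input for 3 samples given by codes that are not tied to genotypes. The part of either in the nbp35-3 differences was not tested.

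**Figure D5:**
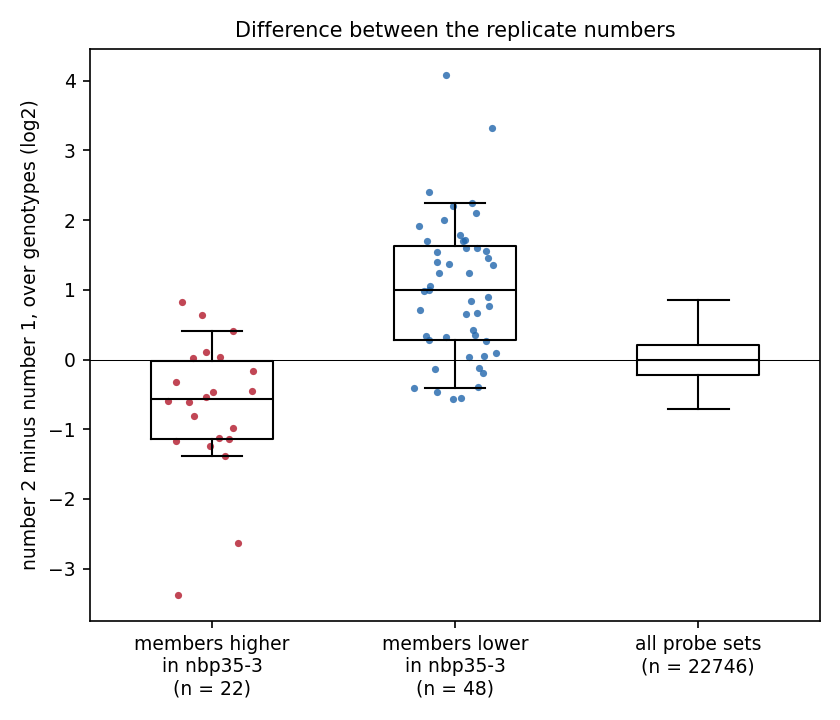
The difference of number 2 minus number 1 over the genotypes (log2, y axis) is shown for the 22 members higher in nbp35-3, the 48 lower in nbp35-3 and all 22746 probe sets, with points for single members, boxes for the quartiles, a line at the median and whiskers at the 5th and 95th percentiles. The medians are -0.56, 0.996 and -0.01.

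Genes of several pathways were followed as lists, of which few members were named by a probe set of their own. Probe sets without a gene name, among them 28 of the 48 lower members, could not be placed on these lists. The counts below therefore cover measured genes only. The lists were written with earlier results of these data known, so their counts in nbp35-3 and nar1-4 are a description and no independent support. The electron-transfer protein ATR3, the 1 measured gene of 8 for cytosolic Fe-S assembly, differed from wild type by 0.15 and 0.02 within numbers 1 and 2 in nbp35-3. Of 4 measured iron deficiency genes 0 passed the rule in nbp35-3, and 2 were higher past it in nar1-4. IMA1, a peptide that promotes iron uptake, stood at 3.30 and 6.80 in nbp35-3, 4.31 and 9.53 in nar1-4, and 3.53 and 7.44 in wild type. Of 6 measured oxidative stress genes 0 passed the rule in nbp35-3, with a median of -0.25, and 3 were higher past it in nar1-4. In the nitrate response, where 2 of 15 genes were measured, 0 passed, the repressors HHO3 and HHO2 differing by 0.27 and 0.12. In the jasmonate list 0 of 3 measured genes passed and in the clock list 0 of 3. The 1 measured gene for salicylic acid and defence, GRX480, did not pass. In the flavonoid list 1 of 3 was lower past the rule, DFR, which had been left out of the members by name. The DNA damage list had 0 measured genes. In these lists limma called 0 genes in nbp35-3 against wild type.

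Position in the genome was looked up for the 27 members naming 1 gene, in the RefSeq annotation of assembly TAIR10.1. Their genes lay on all 5 chromosomes. AT5G20740, lower in nbp35-3, and AT5G20790, higher in nbp35-3, are neighbours with 0 protein-coding genes between them. The lower members AT5G01870 and AT5G01910 had 5 coding genes between them, and the next closest pair, AT4G29700 and AT4G30650, had 100.

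Among probe sets naming 1 gene, those nearest the threshold show how fine the choice was. Some other probe sets lay nearer, such as 250182_at with 0.60 in nbp35-3. Just inside in nbp35-3 lay AT4G24050, with 0.63 as its smaller difference, and AT5G35940, with -0.59, and just outside lay AT5G56100 with 0.58 and AT2G44300 with -0.58. On the side of nar1-4, AT3G50560 stayed a member with 0.44 and 0.50, and AT3G56080 with -0.60 and -0.54.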

How the data were processed

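The authors deposited log2 expression values of 1-colour Affymetrix arrays, made with RMA per the submitters' processing notes; RMA normalizes arrays to a shared distribution, so a change in total RNA cannot be seen. For RMA, no version was stated in the sources. Scanner files were not used. Signal over background was not measured, and 2 arrays a genotype limit the precision. Control probe sets were set aside, leaving 22746. The platform annotation named 1 gene for 13513, several for 503 and none for 8730, and 13436 matched a locus in RefSeq (TAIR10.1). Tables were made with pandas 2.3.3 in Python 3.11.15. Members, lists and rules were chosen with earlier results of these data known.

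The two-sided tests used limma's lmFit and eBayes (version 3.58.1, R 4.3.3) on all probe sets, with Benjamini-Hochberg adjustment, 1 mean per genotype and 3 residual degrees of freedom. The fit between numbers had genotype as covariate and 2. SEs include the gap between the numbers unless the block is named. Same-numbered arrays deviated together from their genotype means (correlations 0.694 for nbp35-3 with wild type, 0.814 for nar1-4 with wild type and 0.674 for nbp35-3 with nar1-4), and the block was fitted as well, although what a number shares is not recorded. The fit was checked on simulated data. Named genes were, among members naming 1 gene, the 15 a direction with the largest smaller-of-2 within-number difference (8 were available on the higher side), plus any member on a gene list. Alternatives were other thresholds, readings of "not moved", normalizations, a level filter, priors, the block and leaving out arrays.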

Additional observations from a re-analysis of the deposited data

How the results depend on the processing

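The choice of members depended on the threshold and on the reading of "not moved in nar1-4". With a threshold of 1 log2 unit 3 probe sets were higher and 2 lower, the 2 not being among the 48 lower members, and with 0.5 there were 37 and 84. Asking nar1-4 to stay under the threshold within both numbers left 10 and 30, and asking nbp35-3 to differ from nar1-4 past the threshold within both left 7 and 9. Probe sets above the median level gave 12 and 24. Genotype means without pairing by number gave 146 and 171. Within a single number the counts were 272 to 684 higher and 208 to 798 lower. Median centring and quantile normalization kept 22 of 22 higher members, and 38 and 41 of 48 lower ones. The replicate block left the limma calls at 0 in each comparison of genotypes, as did every other alternative run for them, and it changed no call. Calls between the numbers ran from 1715 to 5816 when single arrays were left out. Of the 23 named genes, 5 were flagged as moved under median centring and 4 under quantile normalization, with 0 reversed in sign. The flag did not use the SE, and each flagged shift was smaller than the SE of its gene. For AT1G11340, median centring took the difference from wild type from 0.68 to 0.71, with an SE of 0.36. The sign of the named genes within either number alone was fixed by the rule.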
